A study of Mus musculus with 8 samples.

Results

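Thyroid hormone reaches a neuron by transport, is activated or inactivated by deiodinases, and acts through nuclear receptors on target genes. 7 genes of this path were listed: the transporter gene Slco1c1, the hormone-binding protein gene Crym, the deiodinase genes Dio2 and Dio3, the receptor genes Thra and Thrb, and the target gene Klf9. They were taken by symbol from a table of 16397 genes, in which 6 of the 7 had a row, and all 6 were among the 13707 protein-coding genes tested. Slco1c1 was not analysed here. No listed gene was called different between intrauterine growth restricted (IUGR) and sham hippocampi by edgeR. Dio2, which encodes the activating deiodinase, was the gene whose expression did not overlap between the groups, with a mean of 8.62 ± 1.94 CPM after IUGR against 17.7 ± 8.64 CPM after sham surgery (counts per 1000000, SD, n = 4 per group). Its edgeR adjusted p was 0.173, and 7.14% of all tested genes likewise did not overlap.

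The libraries were made from total RNA of hippocampi of C57Bl/6J mouse embryos at E15.5, with 4 IUGR and 4 sham samples. Dams of the IUGR group carried a micro-osmotic pump that released the thromboxane A2 analog U-46619 from E12.5, which raises maternal blood pressure. Dams of the sham group carried the same kind of pump with the vehicle alone, so that surgery, pump and ethanol vehicle were common to both groups. The labels give neither the sex nor the litter of a sample, and they do not say whether hippocampi were pooled. The IUGR samples are named T1-1, T1-3, T1-4 and T1-5, and the sham samples S1-4, S1-6, S3-1 and S3-4. The meaning of the prefix is not given in the sources used here, and prefix and group cannot be told apart. P-values therefore measure the spread between these samples and may leave out that between dams. Samples that share a dam would not be independent replicates of the treatment.

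Thyroxine, the main form of the hormone in blood, has to cross cell membranes through carriers. The deiodinase encoded by Dio2 converts it to triiodothyronine, the form that binds the receptors with high affinity, whereas the enzyme encoded by Dio3 inactivates both. The receptors sit on DNA with retinoid X receptors, recruit corepressors without hormone and coactivators with it, and thyroid hormone is known to be needed for the migration and maturation of hippocampal neurons.

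Both deiodinases are selenoproteins, and their genes read a TGA codon, elsewhere a stop signal, as selenocysteine in the active site. The coding strand around this codon is printed because it shows what the activating and the inactivating enzyme share. It was read from GENCODE M21 transcripts on GRCm38, 5′ to 3′, with the active-site selenocysteine codon in capitals, which is codon 130 of Dio2-201 (chr12:90729823-90729825, minus strand) and codon 170 of Dio3-202 (chr12:110279739-110279741, plus strand).
Dio2: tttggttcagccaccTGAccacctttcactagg
Dio3: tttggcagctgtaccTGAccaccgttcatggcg
These windows were identical at 21 of 33 bases, the codon included. Dio2-201 has a further selenocysteine codon, codon 263, near the end of its coding sequence.

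The receptor genes differ in how their coding sequences end, which bears on what a count per gene can show. The last 30 coding bases and the stop codon, in capitals, are printed for both Thra transcripts and for Thrb on the plus strand of GRCm38, with stop codons at chr11:98764526-98764528, chr11:98768523-98768525 and chr14:18033664-18033666, in the order printed.
Thra-202: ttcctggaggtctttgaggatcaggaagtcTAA
Thra-201: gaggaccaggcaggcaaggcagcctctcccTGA
Thrb-201: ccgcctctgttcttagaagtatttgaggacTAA
Thra-202 has 410 codons before its stop codon and encodes the hormone-binding receptor, and Thra-201 has 492 and encodes the splice form with another end, which does not bind the hormone. The 3 annotated Thrb coding transcripts (461, 475 and 461 codons) share the end printed. The counts add all transcripts of a gene, so the level of Thra below is the sum of a receptor and a form without hormone binding.

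The RefSeq promoter table of GRCm38.p6 held 6 windows of 300 bases for 5 of the 7 listed genes, each from 250 bases before to 50 bases after a start of transcription. The motif TGACGTCA, a cyclic AMP response element, was searched on both strands and was found in the Dio2 window alone among the 6, starting 95 bases before the start of transcription. Of all 32851 promoter windows, 588 (1.79%) hold it. The 250 bases before that start (chr12:90739039-90739288, minus strand) are printed because Dio2 is the gene whose groups separated, with the motif in capitals.
Dio2 promoter: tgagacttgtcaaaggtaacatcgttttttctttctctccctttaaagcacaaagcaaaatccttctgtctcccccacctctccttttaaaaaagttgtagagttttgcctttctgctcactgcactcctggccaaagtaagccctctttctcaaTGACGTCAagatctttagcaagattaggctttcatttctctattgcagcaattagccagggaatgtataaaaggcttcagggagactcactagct
The thyroid hormone receptor core AGGTCA, searched on both strands, was found in 1 of the 2 Thrb windows, 184 bases before the start, and in no other window of the set. That core occurs in 16.3% of all windows. The direct repeat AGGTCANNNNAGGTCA, which contains the core, was found in none of the 6 windows and in 5 of the 32851. A match describes letters only, and no binding was measured.

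Total counts were 12919546 to 16672463 in IUGR and 11212632 to 15405748 in sham samples, so the depths overlapped. Counts were scaled by edgeR's TMM method and are given as CPM, counts per 1000000. To be called, a gene had to reach an adjusted p of 0.05 or less together with an absolute log2 fold change of 1 or more. Of the 13707 genes, 200 (1.46%) were called, 186 lower and 14 higher in IUGR, and over all of them the log2 fold change had a median of −0.02. All 10 hippocampal and pallial identity genes looked up, such as Emx1 and Prox1, were in the table, and their mean log2 CPM was 6.24 to 6.74 in IUGR and 6.04 to 7.24 in sham samples. Choroid plexus markers set the groups apart: all 14 tested were lower in IUGR, 3 of them called, with a mean log2 CPM over 17 markers of −0.25 to 3.24 in IUGR and 4.93 to 5.56 in sham samples. In bulk tissue, fewer cells of a type and less RNA per cell cannot be told apart. The mean log2 CPM of 14 general neuron markers was 6.83 to 7.35 in IUGR and 6.39 to 6.82 in sham samples. That of 10 meningeal fibroblast markers was 7.36 in T1-3 and 2.52 to 5.55 in the other 7 samples. For 12 radial glia markers it was 7.48 to 7.79 in IUGR and 7.60 to 7.91 in sham samples, with S3-4 the highest. For 16 brain endothelial markers it was 4.07 to 4.79 in IUGR and 3.90 to 4.59 in sham samples. The part of any of these cell types in the values of the listed genes was not tested.

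Among the 6 listed genes measured, 0 were called by edgeR, 0 by DESeq2's Wald test and 0 by limma-voom. None passed the adjusted p alone, a criterion met by 1.55% of tested genes. 4 genes were lower in IUGR and 2 higher (median −0.56 on the log2 scale), and none of these directions is a call. At an unadjusted p under 0.05 in edgeR there was 1 of 6, Dio2, beside 11.1% of all tested genes. DESeq2 placed 2 (Dio2 and Crym) under that value, beside 11.9% of all tested genes, and limma-voom 3 (Klf9 as well), beside 11% (1511 genes). Dio2 was also the 1 of 6 genes whose groups did not overlap, beside 7.14% of all tested genes (5.06% with IUGR lower and 2.08% with IUGR higher).

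**Figure D1:**
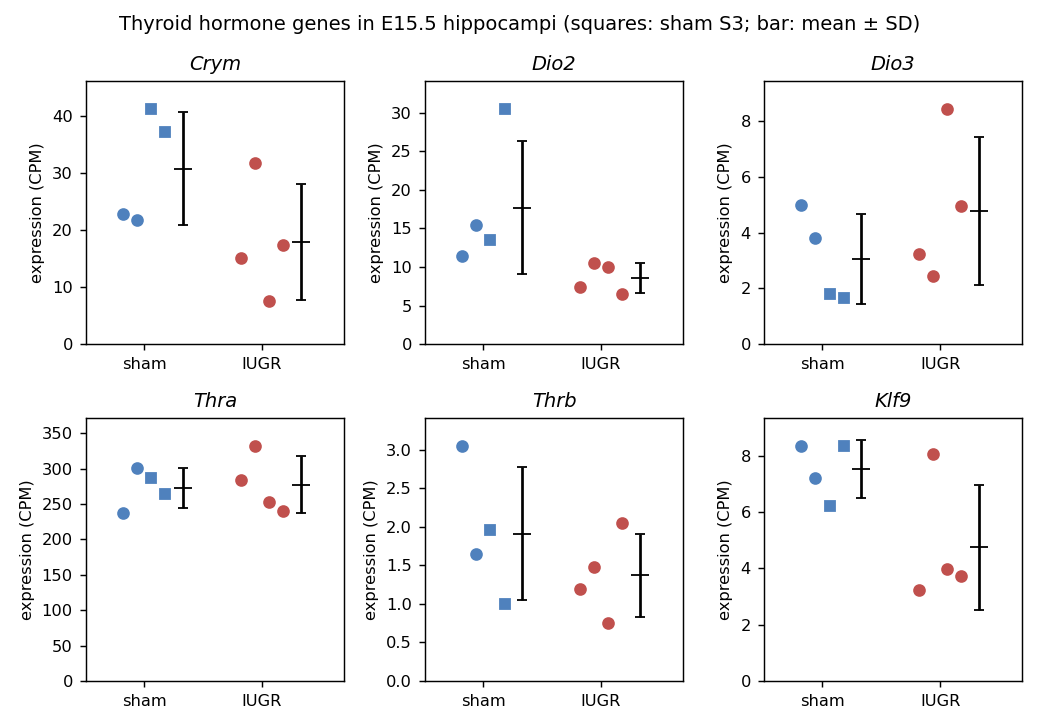
CPM (linear axes from 0) of the 6 measured genes in each sham (blue, squares for prefix S3) and IUGR (red) sample, with the mean ± SD (n = 4) as a black bar. Dio2 is the panel in which all IUGR points lie below all sham points, and the single high IUGR points of Crym and Klf9 are both T1-3.

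Crym encodes mu-crystallin, a cytosolic protein that binds triiodothyronine and holds it in the cell. It lies at chr7:120186380-120202111 on the minus strand of GRCm38. T1-1 had 15.1 CPM of Crym, T1-3 had 31.7, T1-4 had 7.50 and T1-5 had 17.4. Among sham hippocampi S1-4 had 22.7 CPM, S1-6 had 21.7, S3-1 had 41.1 and S3-4 had 37.1. IUGR samples other than T1-3 lay below every sham sample, T1-3 lay between the sham prefixes, and both S3 samples were above both S1 samples. The log2 fold change was −0.77 (standard error 0.38, 95% interval −1.62 to 0.08, edgeR adjusted p = 0.532). An exact two-sided permutation test of log2 CPM gave p = 0.114. Without T1-3 the groups did not overlap, which fewer samples make easier, and the log2 fold change was −1.18 (edgeR adjusted p = 0.148). Against the S1 samples alone it was −0.31, and against the S3 samples alone −1.10, so the size of the difference varied with the sham samples used.

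Dio2 (chr12:90724552-90738438, minus strand) encodes the enzyme that makes triiodothyronine within the brain. T1-1 had 7.42 CPM of Dio2, T1-3 had 10.51, T1-4 had 10.03 and T1-5 had 6.54. Among sham hippocampi S1-4 had 11.5 CPM, S1-6 had 15.4, S3-1 had 13.5 and S3-4 had 30.4. The highest IUGR sample was thus below the lowest sham sample by a small margin, and S3-4 stood above the other sham samples. The log2 fold change was −1.04 (standard error 0.32, 95% interval −1.74 to −0.34, edgeR adjusted p = 0.173), lower in 4 of 4 IUGR samples than in any sham sample. The exact two-sided permutation test gave p = 0.0286, the smallest that 4 samples against 4 allow. Without S3-4 the log2 fold change was −0.64 (edgeR adjusted p = 0.423) and the groups still did not overlap. Over all alternatives the adjusted p of Dio2 lay between 0.0572, from DESeq2's Wald test, and 0.651, from edgeR with the S1 samples alone as sham. The counts behind these values averaged 172 per sample. An opposite-strand lncRNA, Gm26512, overlaps 100 exon bases of Dio2 and was not in the table, and the strand setting of the counting is not given in the sources used here.

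Dio3 (chr12:110279068-110281097, plus strand), the inactivating deiodinase gene, is an imprinted gene at the distal end of its domain. T1-1 had 3.22 CPM of Dio3, T1-3 had 2.46, T1-4 had 8.43 and T1-5 had 4.94. Among sham hippocampi S1-4 had 4.99 CPM, S1-6 had 3.81, S3-1 had 1.80 and S3-4 had 1.64. The groups overlapped through the S1 samples, whereas both S3 samples were below every IUGR sample. The log2 fold change was 0.64 (standard error 0.47, 95% interval −0.41 to 1.69, edgeR adjusted p = 0.856; exact permutation p = 0.314). It was 0.22 without T1-4, 0.11 with the S1 samples alone as sham and 1.49 with the S3 samples alone. The mean count was 49.0.

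Both deiodinase genes were measured in the same libraries, so each library gives a ratio of its own, taken as the difference of the log2 CPM values with a prior count of 2. The log2 ratio of Dio2 to Dio3 was 1.17 for T1-1, 2.03 for T1-3, 0.25 for T1-4 and 0.39 for T1-5. For the sham samples it was 1.17 (S1-4), 1.97 (S1-6), 2.801 (S3-1) and 4.09 (S3-4). Dio2 had more counts than Dio3 in all 8 samples, but exon length, 5815 bases for Dio2 and 2030 for Dio3, was not adjusted for. In this ratio both S3 samples exceeded every other sample, while S1 and IUGR samples overlapped. The mean was 0.96 ± 0.82 in IUGR and 2.51 ± 1.25 in sham samples (SD, n = 4 each), and no test was run on it. Leaving out each sample in turn moved the difference of the means, −1.55, to values between −1.997 and −1.02.

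**Figure D2:**
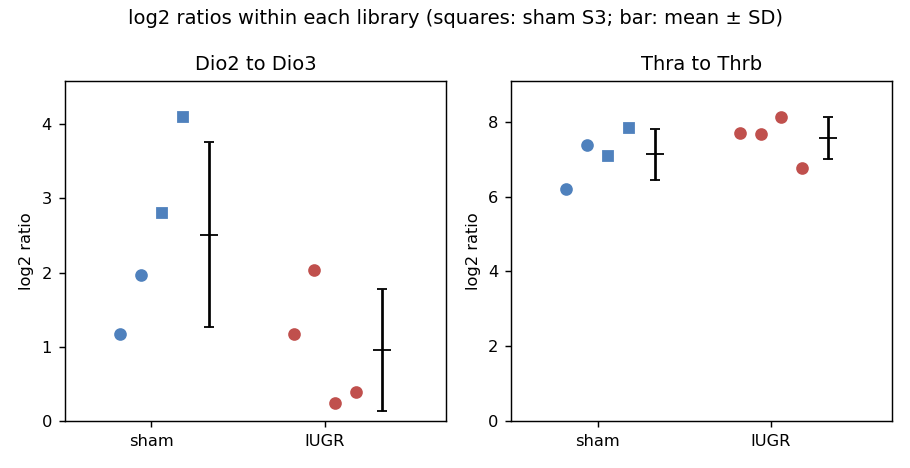
log2 ratios of Dio2 to Dio3 and of Thra to Thrb within each library (linear axes from 0), not adjusted for exon length. Sham S3 samples are squares, and the black bar is the mean ± SD (n = 4). The 2 highest Dio2 to Dio3 ratios are the S3 samples at 2.801 and 4.09, and the Thra to Thrb ratios of the groups overlap.

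Thra (chr11:98740638-98769006, plus strand), the main receptor gene of the fetal brain, was the most counted gene of the set, with a mean count of 3596. T1-1 had 284 CPM of Thra, T1-3 had 332, T1-4 had 253 and T1-5 had 241. Among sham hippocampi S1-4 had 237 CPM, S1-6 had 301, S3-1 had 287 and S3-4 had 264. The ranges lay almost on top of each other. The log2 fold change was 0.03 (standard error 0.14, edgeR adjusted p = 1.00; exact permutation p = 0.886), and its sign turned to −0.039 without T1-3 and to −0.010 without S1-4. The 95% interval, −0.28 to 0.33, corresponds to folds of 0.826 to 1.26, the narrowest interval of the 6 genes. Thra shares 263 exon bases with Nr1d1 on the opposite strand.

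Thrb (chr14:17660261-18038090, plus strand), the receptor gene that is known to rise later in brain development, was close to the lower limit of the test. Its counts ran from 9 to 33 per sample, with a mean of 20.9. T1-1 had 1.20 CPM of Thrb, T1-3 had 1.48, T1-4 had 0.758 and T1-5 had 2.05. Among sham hippocampi S1-4 had 3.05 CPM, S1-6 had 1.64, S3-1 had 1.96 and S3-4 had 0.998. The groups overlapped throughout, with S1-4 above and T1-4 below the rest. The log2 fold change was −0.46 (standard error 0.42, 95% interval −1.40 to 0.48, edgeR adjusted p = 0.956; exact permutation p = 0.343). The interval corresponds to folds of 0.379 to 1.39. Single samples moved the value, to −0.13 without S1-4 and −0.71 without T1-5, and it was −0.76 with the S1 samples alone as sham and −0.072 with the S3 samples alone.

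The log2 ratio of Thra to Thrb, taken in the same way, was 7.57 ± 0.57 in IUGR and 7.13 ± 0.69 in sham samples (SD, n = 4 each), and the groups overlapped. In the individual samples it was 7.71 (T1-1), 7.67 (T1-3), 8.12 (T1-4), 6.77 (T1-5), 6.21 (S1-4), 7.39 (S1-6), 7.08 (S3-1) and 7.84 (S3-4). Over the 8 samples Thrb ranged from 0.758 to 3.05 CPM and Thra from 237 to 332 CPM.

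Klf9 (chr19:23141226-23168134, plus strand) encodes a zinc finger transcription factor that triiodothyronine induces in neurons, as glucocorticoids also do. T1-1 had 3.22 CPM of Klf9, T1-3 had 8.05, T1-4 had 3.96 and T1-5 had 3.73. In the sham group S1-4 had 8.32 CPM, S1-6 had 7.19, S3-1 had 6.20 and S3-4 had 8.34. T1-3 lay within the sham range, and the other IUGR samples lay below it. The log2 fold change was −0.66 (standard error 0.31, 95% interval −1.34 to 0.03, edgeR adjusted p = 0.481; exact permutation p = 0.0857). Without T1-3 it was −1.01 with an adjusted p of 0.0723 from edgeR, and the groups did not overlap, which fewer samples make easier. T1-3 was also the sample with the highest meningeal fibroblast marker level, and the part of these cells in the Klf9 value was not tested. The mean count was 79.9.

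Levels of different genes were compared per kilobase of annotated exon. In sham hippocampi Thra stood at 59.0 ± 6.09 CPM per kb, Crym at 9.04 ± 2.91, Dio2 at 3.04 ± 1.49, Klf9 at 1.56 ± 0.21, Dio3 at 1.51 ± 0.80 and Thrb at 0.258 ± 0.116 (SD, n = 4). In this order the sample ranges of Klf9 and Dio3 overlapped, and those of the other neighbours did not. In IUGR hippocampi the order was Thra at 60.1 ± 8.82 CPM per kb, Crym at 5.29 ± 2.98, Dio3 at 2.35 ± 1.31, Dio2 at 1.48 ± 0.33, Klf9 at 0.984 ± 0.463 and Thrb at 0.185 ± 0.073. There Crym and Dio3, Dio3 and Dio2, and Dio2 and Klf9 did not differ beyond their ranges. Thra was therefore the first and Thrb the last gene in both groups, and Dio3 stood below Dio2 and Klf9 in sham and above both in IUGR, with sample ranges that overlapped those of both genes in each group.

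**Figure D3:**
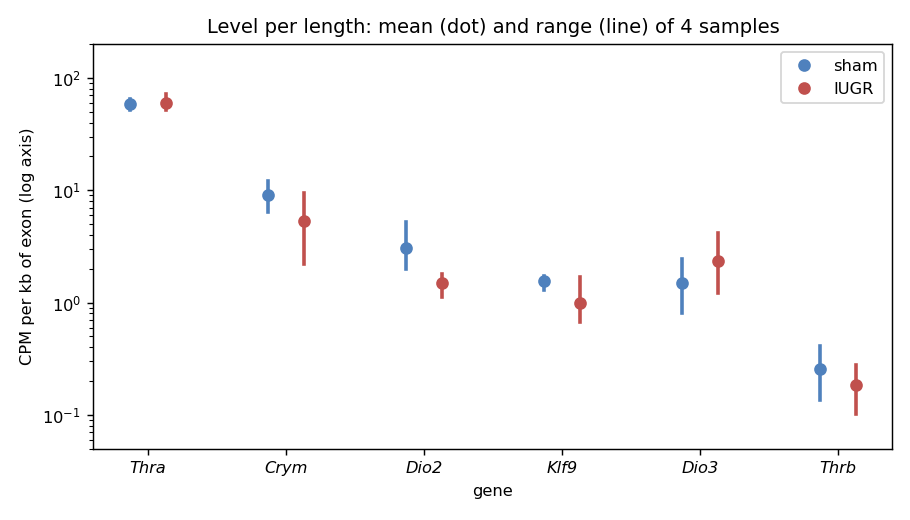
Level per length of the 6 measured genes (CPM per kb of exon, log axis) in sham (blue) and IUGR (red) hippocampi, with the mean as a dot and the range of 4 samples as a line. Thra is near 60 in both groups and Thrb under 0.5, and the Dio2 ranges do not overlap between the groups.

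Other carriers of the hormone were read from a list of 8 further transporter genes, of which 7 were in the table and tested, 4 lower and 3 higher (median −1.17 on the log2 scale). None was called by edgeR, while 4 lower and 1 higher had an unadjusted p under 0.05 (11.1% of all tested genes in either direction) and 3 did not overlap between the groups (7.14%). DESeq2 called 2 and limma-voom called 2, with Slc16a10 called by both and Slco1a4 by limma-voom but not by DESeq2. Slco1a4, an organic anion carrier that takes up thyroxine, had 0.525 CPM in T1-1, 7.93 (T1-3), 0.169 (T1-4) and 27.8 (T1-5), and 53.9 to 91.2 CPM over the sham samples. Its log2 fold change was −2.93 (standard error 0.97, edgeR adjusted p = 0.217, 0.234 from DESeq2), and limma-voom gave −4.81 (adjusted p = 0.0318). Slc16a10, which carries aromatic amino acids and thyroid hormone, had 4.20, 10.6, 1.60 and 26.2 CPM in the same order and 36.8 to 76.4 CPM over the sham samples. Its log2 fold change was −2.44 (standard error 0.64, edgeR adjusted p = 0.106, 0.0472 from DESeq2 and 0.0267 from limma-voom). Without T1-5, the IUGR sample with the highest value of both genes, edgeR called both, with log2 fold changes of −3.38 for Slc16a10 (adjusted p = 0.0145) and −4.53 for Slco1a4 (adjusted p = 0.0321).

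Ttr, which encodes transthyretin, the thyroxine carrier that the choroid plexus secretes into cerebrospinal fluid, was listed separately. Its level was 25.4 CPM for T1-1, 966.1 for T1-3, 10.2 for T1-4 and 594.0 for T1-5, against 4550 to 10851 CPM over the sham samples. Its mean count of 51566 was above the limit of 50000 that the count filter sets, so it was not tested. Slco1a4, Slc16a10 and Ttr were each lowest in T1-1 and T1-4, the samples in which the choroid plexus markers were also lowest (mean log2 CPM 0.26 and −0.25, against 3.24 in T1-3 and 3.22 in T1-5). Crym was lowest in these samples as well. Dio2 did not follow this order, since it was lowest in T1-5 and T1-1 and higher in T1-4. The part of choroid plexus tissue in any of these values was not tested.

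**Figure D4:**
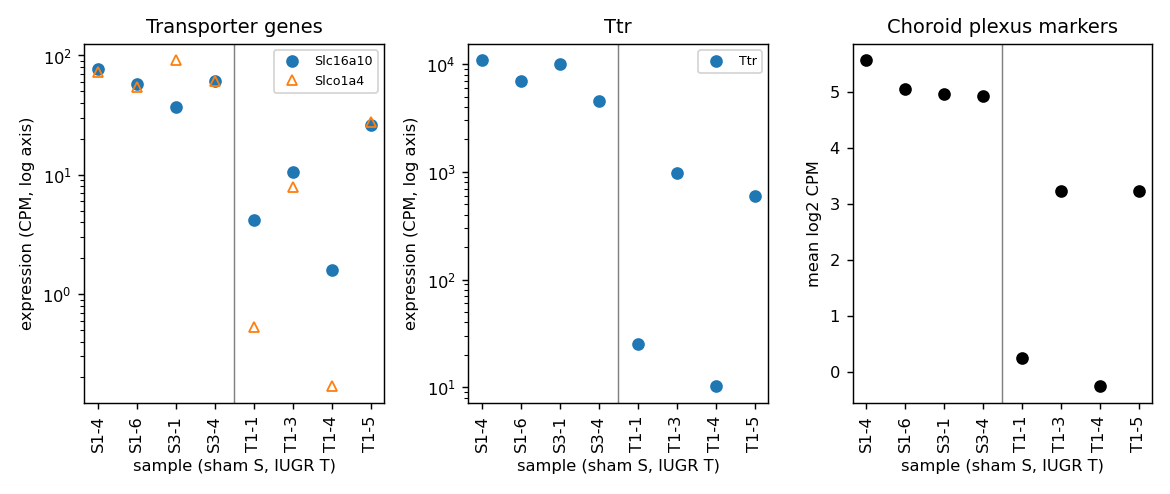
CPM of 2 transporter genes and of Ttr (log axes) and the mean log2 CPM of 17 choroid plexus markers (linear axis) in each sample, with sham on the left of the grey line. Slco1a4, Slc16a10, Ttr and the markers all fall lowest in T1-1 and T1-4.

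The genes that act with the receptors and the deiodinases stayed near 0 on the log2 scale. The median log2 fold change was 0.03 for the 3 retinoid X receptor genes, with the 6 corepressor genes at −0.02 and the 6 coactivator genes at −0.09. The 5 measured genes of selenocysteine synthesis and insertion, which both deiodinases need, had a median of −0.02, and Dio1 was not analysed here. None of these 20 genes was called by edgeR (beside 1.46% of all tested genes), DESeq2 or limma-voom. In edgeR 0 had an unadjusted p under 0.05 (beside 11.1%), and none separated the groups (beside 7.14%). Those named by the rule were Rxrg (0.27) and Rxra (−0.19), the corepressor complex gene Tbl1xr1 (−0.06), the coactivator genes Ep300 (−0.12) and Ncoa1 (−0.11), and Eefsec (−0.22) and Secisbp2 (−0.18), which insert selenocysteine. The signs of Rxrg, Rxra, Tbl1xr1, Ep300 and Ncoa1 each turned under at least 1 alternative.

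Other genes known to respond to thyroid hormone were found on both sides of 0. Of 16 listed, 12 were tested, 4 lower and 8 higher (median 0.22 on the log2 scale), and 0 were called by edgeR, DESeq2 or limma-voom. At an unadjusted p under 0.05 in edgeR there were 1 lower, Thrsp, and 2 higher, 1 of them the myelin gene Mbp. Of all tested genes 11.1% were under that value. Thrsp, a lipid synthesis regulator gene, had a log2 fold change of −1.27 with an edgeR adjusted p of 0.202. Shh, a secreted morphogen gene, stood at 1.34 on that scale (standard error 0.85, edgeR adjusted p = 0.751) at a mean count of 22.3. Among these targets, including Klf9, no gene passed the test in either direction.

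**Figure D5:**
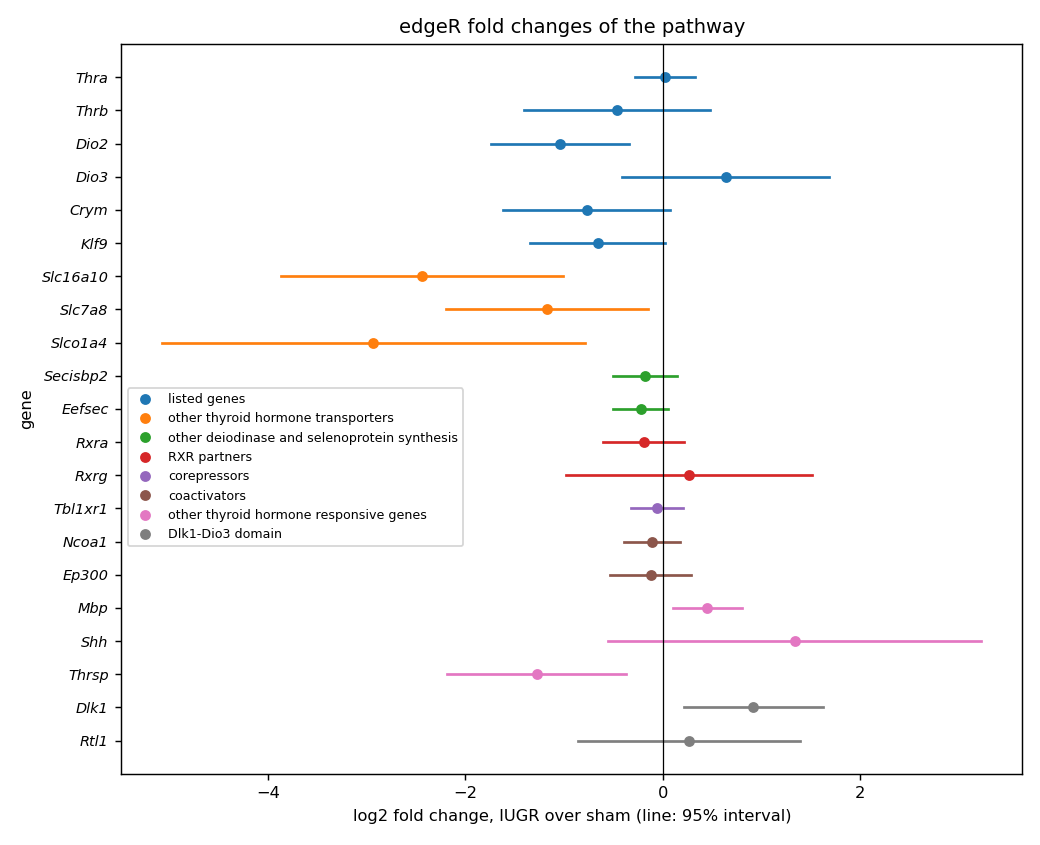
log2 fold changes, IUGR over sham, of the 6 measured genes and of 15 tested genes of the path named in the text (dots, colored by list) with the 95% interval from edgeR as a line. The cofactor and selenoprotein synthesis genes lie near 0, and the transporters Slc16a10, Slc7a8 and Slco1a4 lie at −1.17 or lower.

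Dio3 lies in an imprinted domain with Dlk1, and the neighbours were listed to place its value. Dlk1, a Notch ligand relative expressed from the paternal copy like Dio3, ranged from 12.8 to 24.0 CPM after IUGR and from 5.73 to 15.2 CPM after sham surgery. Its log2 fold change was 0.92 (standard error 0.32, edgeR adjusted p = 0.246). Rtl1, the retrotransposon-derived gene between them, stood at 0.26 on the log2 scale (standard error 0.51, edgeR adjusted p = 1.00), which turned to −0.021 without S3-4. In the fit over all biotypes the noncoding RNAs of the domain had log2 fold changes of 0.60 (Meg3), 0.65 (Rian), 0.12 (Mirg) and 0.04 (Dio3os), with adjusted p between 0.468 and 1.00 from edgeR. All 6 neighbours were thus on the same side of 0 as Dio3, as were 6099 of the 13707 tested genes, and none passed the test. A shift of the domain as a whole was not tested.

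The genes most like each listed gene were found by Pearson's r of log2 CPM over the 8 samples after the mean of each group was removed, among the 10871 or 10872 other tested genes whose mean count reached 100. For Crym they were Itm2b (0.998), Sv2b (0.975) and Snx18 (0.970). For Dio2 they were Cd9 (0.969), Ccdc47 (0.967) and Wasf3 (0.963), and for Dio3 Akap5 (0.984), Dlx6 (0.965) and Pagr1b (0.957). For Thra they were 6430548M08Rik (0.977), Gdpd5 (0.961) and Rhob (0.954), for Thrb Snrk (0.966), Aldh6a1 (0.942) and Agtpbp1 (0.939), and for Klf9 Slc19a1 (0.974), Serpine2 (0.940) and Cd248 (0.932). With 8 samples and so many genes high values of r arise readily, the samples share 1 scaling, and the values describe these libraries only. Thra, Dio2 and Crym had counts high enough to be candidates, and none of them was among the 3 genes most like another listed gene.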

How the data were processed

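Single reads of 8 total RNA libraries, depleted of ribosomal RNA and made with a strand-specific kit, were counted by gene, and the authors deposited raw counts, without normalization, with 1 column per sample. The submitters' processing notes name Novoalign 2.8 and mm10. The counting program, the annotation and the strand setting are not given in the sources used here. Per-sample columns left unused numbered 0.

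Identifiers were matched to GENCODE M21 (16124 of 16397). The 13707 protein-coding genes whose mean count was 10 or more and below 50000 entered edgeR 4.0.16 (R 4.3.3), with TMM scaling and its quasi-likelihood test. P-values were adjusted by Benjamini and Hochberg's method over these 13707 genes, and standard errors and 95% intervals are those implied by the test. CPM rest on TMM-scaled library sizes, and log2 CPM add a prior count of 2. The script was tested on simulated data. Within-group sample pairs differed by more than counting error (chi-square per degree of freedom 20.9 to 60.7). No sample was therefore taken for a duplicate library, and each counted once. This does not show that the samples came from different dams. The lists and the listed genes were chosen with earlier results of these data known. All listed genes are named, and of each pathway list the called genes or else the 2 tested genes with the largest absolute log2 fold change. A few genes of the lists enter the counts and medians but are not reported here. Other list genes that carry a value (Thrsp, Mbp, Slc7a8 and the noncoding RNAs) were named after their values were seen. Alternatives were size factors of DESeq2 or the upper quartile within edgeR, the Wald test of DESeq2 1.42.0, limma-voom (limma 3.58.1), robust estimation in edgeR, no count filter or a mean count of 50, genes of any biotype, each sample left out, and 1 sham prefix alone.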

Additional observations from a re-analysis of the deposited data

Results flagged for a closer look

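Of 38 groups of 4 samples checked among the genes named, 2 held a sample whose gap to its nearest neighbour exceeded Dixon's 95% critical value, as chance gives in about 5% of groups. Klf9 was at 8.05 CPM in T1-3, with the other IUGR samples at 3.22 to 3.96 CPM. Rxrg, a retinoid X receptor gene, was at 0.570 CPM in S3-4, with the other sham samples at 4.76 to 5.18 CPM.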

How the results depend on the processing

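The number of listed genes called, and the number past the adjusted p alone, was 0 under all 18 alternatives, in which Dio2, Crym, Klf9 and Thrb stayed lower and Dio3 higher wherever they were tested. A mean count of at least 50 took Dio3 and Thrb out of the test. The number of listed genes without overlap lay between 1 and 3 with each sample left out (3 without T1-3: Dio2, Crym and Klf9) and was 3 with the S3 samples alone as sham (Dio2, Dio3 and Crym). Groups separate more readily when fewer samples are compared. The share of all tested genes without overlap was not computed for these settings, so the counts cannot be read against it. Over all genes, 425 were called by DESeq2, 328 by limma-voom, 73 with a mean count of at least 50, 2 with the S3 samples alone as sham and 0 with the S1 samples alone (1053 at an unadjusted p under 0.05), where fewer samples were compared. With each sample left out the number was 41 to 298, and it moved by over 1.5 times without T1-1 (65), T1-4 (111), S1-4 (41), S1-6 (128), S3-1 (105) or S3-4 (60). Signs turned for some log2 fold changes, and their range with each sample left out is given first: Thra (−0.039 to 0.11, below 0 without T1-3 and without S1-4), Rxrg (−0.099 to 0.49, and −0.074 with S1 alone), Rxra (0.042 with S3 alone), Tbl1xr1 (−0.12 to 0.047), Ep300 (−0.25 to 0.12, and 0.18 with S3 alone), Ncoa1 (0.081 with S3 alone) and Rtl1 (−0.021 to 0.65, and −0.31 with S1 alone). The cause was not tested. No paired analysis was possible because the final numbers of the sample names differ between the groups apart from 1 and 4, and 4 occurs in 2 sham names, so that they pair no full set of samples. Mean counts were 20.9 for Thrb and 49.0 for Dio3, the lowest of the listed genes.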
